A study of Mus musculus with 8 samples.

Results

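Monocytes and tissue macrophages of mouse jejunum, a stretch of small bowel, were followed through 10 genes: Csf1r, Adgre1, Cx3cr1, Cd163, Mrc1, Ly6c2, Ccr2, Lyz2, Cd68 and Timd4. They were chosen by name as known genes of these cells, with earlier results of these data known. They make up 10 of the 56941 gene identifiers in the count table. All 10 passed the filter on low counts. The libraries came from naive mice of 2 inbred strains, C57BL/6 (B6, the background of the mouse reference genome) and C3H/HeJ (C3H), with 4 libraries per strain. The labels give an age of 6 to 8 weeks, no treatment and at least 8 weeks of being kept together before the tissue was taken. Mice younger than 8 weeks at tissue collection could not have been kept together that long. The age at collection is therefore uncertain. All libraries belong to batch 1. Nothing in the labels states that a library is 1 mouse or that tissue was pooled, so the p-values speak only of spread among the libraries, which may be technical. C3H/HeJ mice also carry a known inactive Tlr4 lipopolysaccharide receptor, so the groups differ by that allele as well as by the rest of their genomes.

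Macrophages of the gut wall depend on signalling through the receptor tyrosine kinase encoded by Csf1r, whose ligands are colony stimulating factor 1 and interleukin 34. Most of them are replaced throughout life by Ly6C-high blood monocytes, which leave the marrow by the chemokine receptor Ccr2 and take on Cx3cr1, Adgre1 (F4/80) and scavenger receptors as they mature. A smaller set maintains itself locally for long periods and is marked by Timd4, a receptor for phosphatidylserine on dying cells. Several of the 10 genes are also made by other cells: Ly6c2 by T cells, Mrc1 by lymphatic and sinusoidal endothelium, Cx3cr1 and Ccr2 by lymphocytes and dendritic cells, and Adgre1 by eosinophils. In bulk tissue, fewer cells of a type and less RNA per cell cannot be told apart.

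Sequence matters first for Ly6c2 and Lyz2, because each has a near-identical neighbour that could take or lend reads. Ly6c2 encodes the monocyte surface antigen Ly6C together with Ly6c1, which is mainly known from endothelium, and Lyz2 encodes the lysozyme of myeloid cells while Lyz1 encodes that of Paneth cells. The first 150 coding bases of each, from the GENCODE M21 transcripts of the B6 reference, are printed 5′ to 3′, with the bases that differ within a pair in capitals.
Ly6c2: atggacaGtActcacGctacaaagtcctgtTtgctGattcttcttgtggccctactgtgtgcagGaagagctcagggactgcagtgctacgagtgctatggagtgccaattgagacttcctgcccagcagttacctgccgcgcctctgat
Ly6c1: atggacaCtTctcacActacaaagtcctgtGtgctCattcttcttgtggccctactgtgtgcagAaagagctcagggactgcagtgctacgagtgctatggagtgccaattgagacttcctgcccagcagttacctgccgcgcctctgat
Lyz2: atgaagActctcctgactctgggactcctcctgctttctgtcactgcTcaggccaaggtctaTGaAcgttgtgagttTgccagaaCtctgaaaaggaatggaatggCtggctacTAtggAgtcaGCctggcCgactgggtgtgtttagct
Lyz1: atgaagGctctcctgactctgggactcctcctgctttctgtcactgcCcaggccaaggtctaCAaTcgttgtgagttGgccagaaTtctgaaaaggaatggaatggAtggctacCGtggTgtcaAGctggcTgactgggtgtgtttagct
Over the whole coding sequence Ly6c2 and Ly6c1 differed at 9 of 393 bases (97.7% identity) and shared an unbroken run of 188 bases. Lyz2 and Lyz1 differed at 22 of 444 bases (95.0% identity), with a longest shared run of 118 bases. Of all 50-base words in the annotated transcripts, 14.4% of those of Ly6c2, 15.4% of those of Lyz2 and 1.91% of those of Ccr2 occurred in another gene, for Ly6c2 and Lyz2 mostly in Ly6c1 and Lyz1. The share was at most 0.269% for the other 7 genes, and it was 0% for Csf1r, Adgre1, Mrc1, Cd68 and Timd4. The Ly6c2 and Lyz2 values are therefore uncertain. Reads of C3H mice were aligned to a genome built from B6, and how differences between the strains in these copies moved the counts was not tested.

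The promoters of Ly6c2 and Timd4 are shown because these genes differed most between the strains. Both are the 250 bases before the start site in the RefSeq table of GRCm38.p6, an earlier build than the GRCm39 used for the counts. Capitals mark matches to GAGGAAGT, a form of the site bound by PU.1, the master factor of myeloid cells encoded by Spi1, or to the shorter GGAAGT, which lies inside it; both strands were searched.
Ly6c2, chr15:75111972-75112221, minus strand: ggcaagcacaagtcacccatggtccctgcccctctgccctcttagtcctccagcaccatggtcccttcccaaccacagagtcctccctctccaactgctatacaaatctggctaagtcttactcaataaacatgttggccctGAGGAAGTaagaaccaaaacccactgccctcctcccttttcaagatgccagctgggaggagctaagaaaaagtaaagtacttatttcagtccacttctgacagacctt
Timd4, chr11:46810549-46810798, plus strand: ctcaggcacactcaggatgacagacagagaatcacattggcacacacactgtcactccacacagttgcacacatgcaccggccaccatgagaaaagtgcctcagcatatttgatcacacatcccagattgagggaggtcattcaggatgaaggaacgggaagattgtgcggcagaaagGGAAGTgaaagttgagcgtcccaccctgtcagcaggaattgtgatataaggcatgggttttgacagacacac
Ly6c2 had 1 match to GAGGAAGT, beginning 108 bases before the start, and Timd4 had 1 match to GGAAGT, beginning 72 bases before it. GAGGAAGT occurred in 2.44% and GGAAGT in 19.7% of 32851 promoters of the same length. Of the 8 genes with a promoter in the table, 1 held the longer and 4 the shorter form (Mrc1, Ly6c2, Lyz2 and Timd4). A match is a string of letters and does not show binding.

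Of the 10 genes 3 rose in C3H and 0 fell in edgeR. At an unadjusted p under 0.05, in DESeq2 and in limma-voom 4 were higher, Cd68 being the further one in each, and 0 lower. Ly6c2 rose 2.72-fold, Timd4 2.56-fold and Csf1r 1.27-fold, while Adgre1, Cx3cr1, Cd163, Mrc1, Ccr2, Lyz2 and Cd68 did not pass the threshold (edgeR quasi-likelihood test, threshold 0.05 on p adjusted over 18025 genes by Benjamini-Hochberg). The strains differ widely, with 21.4% of all tested genes called and 11.3% called higher, so 3 of 10 called has to be read against that share. Over all tested genes 2040 were higher and 1817 lower; with libraries scaled to the core macrophage list described further on, in place of all genes, the split was 1193 higher and 1792 lower. The median log2 fold change (C3H over B6) was 0.27 over the 10 genes and 0.03 over all tested genes, and 7 of the 10 were above 0. The values of the strains did not overlap for 4 of the 10, Csf1r, Cx3cr1, Ly6c2 and Timd4, each higher in C3H, against 12.7% of all tested genes. Levels are given as CPM, counts scaled to a common library size, using TMM factors.

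**Figure D1:**
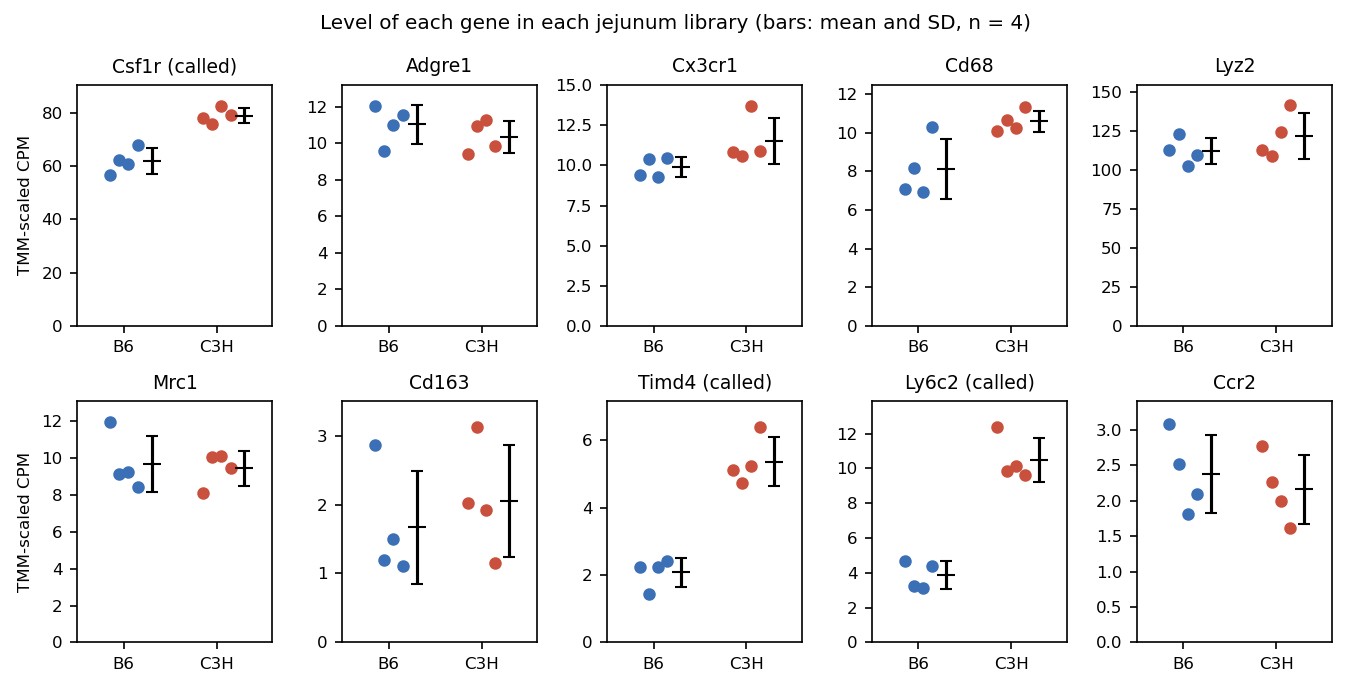
Level of each of the 10 genes in the 4 B6 libraries (blue) and the 4 C3H libraries (red), in TMM-scaled CPM on axes that start at 0, with the mean and SD beside them. The strains are fully apart for Csf1r, Cx3cr1, Timd4 and Ly6c2 and overlap for the other 6 genes.

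Csf1r (ENSMUSG00000024621, chromosome 18), the growth factor receptor on which macrophages depend, was at 56.6, 62.1, 60.9 and 68.0 CPM in B6 2, 3, 4 and 5 and at 77.8, 75.9, 82.5 and 79.0 CPM in C3H 1, 3, 4 and 5. Every C3H library lay above every B6 library. The means were 61.9 ± 4.71 and 78.8 ± 2.8 CPM (SD, n = 4 each), a log2 fold change of 0.35 (standard error 0.08, edgeR adjusted p = 0.00933). Its ligand gene Csf1 rose as well, 1.43-fold, from 10.3 ± 0.689 to 14.8 ± 1.01 CPM (adjusted p = 0.00146). The second ligand gene, Il34, was at 7.70 ± 0.604 and 7.88 ± 0.766 CPM (log2 fold change 0.03, standard error 0.11, adjusted p = 0.875). Both calls were lost in the 2 libraries per strain with least pancreatic RNA (Csf1r log2 fold change 0.31, adjusted p = 0.295; Csf1 0.44, adjusted p = 0.187).

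Timd4 (ENSMUSG00000055546, chromosome 11), the marker of self-maintaining gut macrophages, had 84, 59, 122 and 130 counts in the B6 libraries and 261, 246, 205 and 238 in the C3H libraries. As levels these were 2.23, 1.45, 2.25 and 2.41 CPM against 5.12, 4.72, 5.24 and 6.39 CPM. The lowest C3H library was about as far above the highest B6 library as that one was above 0. Timd4 rose by a log2 fold change of 1.36 with a standard error of 0.17 (adjusted p = 0.00017), which stayed between 1.22 and 1.43 with any 1 library left out. In the 4 libraries with least pancreatic RNA it was 1.14 (adjusted p = 0.00535). No 50-base word of Timd4 occurred in another annotated transcript of the B6 reference. Its family relatives Havcr2 (TIM-3), Havcr1 (TIM-1) and Timd2 lie on the same chromosome. Havcr2, an inhibitory receptor of T cells and myeloid cells, rose 1.43-fold (adjusted p = 0.0332), a call lost on leaving out any library but B6 4 and C3H 3 (adjusted p up to 0.0925). Havcr1 stayed below the threshold at 0.209 and 0.295 CPM, and Timd2 was not tested, with 14 counts over the B6 and 63 over the C3H libraries.

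Mrc1 (ENSMUSG00000026712), the mannose receptor, and Cd163 (ENSMUSG00000008845), the scavenger receptor for haptoglobin-bound haemoglobin, are further marks of tissue macrophages. Mrc1 was at 11.9, 9.12, 9.22 and 8.43 CPM in B6 and at 8.09, 10.1, 10.1 and 9.48 CPM in C3H (log2 fold change -0.04, standard error 0.13, adjusted p = 0.884). The strains overlapped, with B6 2 the highest and C3H 1 the lowest library. Cd163 was at 2.87, 1.20, 1.5 and 1.11 CPM in B6 and at 2.02, 3.13, 1.92 and 1.15 CPM in C3H (log2 fold change 0.33, standard error 0.34, adjusted p = 0.562). Cd163 varied more within each strain than between them. Its highest libraries, B6 2 and C3H 3, also had the highest summed fat and mesothelium markers of their strains (30.0 and 72.2 CPM, against 10.2 to 24.9 CPM in the other 6 libraries), and the part of such tissue in the Cd163 values was not tested. Without C3H 3 its log2 fold change was 0.03, and without B6 2 it was 0.68.

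Adgre1 (ENSMUSG00000004730, chromosome 17), which encodes the classic mouse macrophage antigen F4/80, was at 12.1, 9.58, 11.0 and 11.5 CPM in B6 and at 9.40, 10.9, 11.3 and 9.86 CPM in C3H. These ranges overlapped almost completely, with a log2 fold change of -0.09 (standard error 0.10, adjusted p = 0.594). Cd68 (ENSMUSG00000018774, chromosome 11), a lysosomal glycoprotein of phagocytes, was at 7.07, 8.16, 6.91 and 10.3 CPM in B6 and at 10.1, 10.7, 10.3 and 11.3 CPM in C3H. Only B6 5 reached into the C3H range. Its log2 fold change of 0.38 (standard error 0.13) missed the threshold in edgeR (adjusted p = 0.057) and passed it in DESeq2 (0.0424), in limma-voom (0.0468) and without B6 5 (log2 fold change 0.52, adjusted p = 0.00641).

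Lyz2 (ENSMUSG00000069516, chromosome 10) had the most counts of the 10 genes, with 4249 to 5925 in B6 and 4884 to 5772 in C3H. It was at 113, 123, 103 and 110.1 CPM in B6 and at 113, 109, 125 and 142 CPM in C3H, with overlapping strains (log2 fold change 0.12, standard error 0.10, adjusted p = 0.441). Its copy Lyz1 was far higher, at 1579 ± 233 and 1388 ± 263 CPM (log2 fold change -0.19, adjusted p = 0.475). Lyz2 made up 5.81% to 7.60% of the summed Lyz1 and Lyz2 counts in B6 and 6.13% to 11.4% in C3H. A small share of Paneth cell reads counted to the wrong copy would thus weigh heavily in Lyz2; this was not tested.

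Ly6c2 (ENSMUSG00000022584, chromosome 15), the antigen by which inflammatory monocytes are sorted, had 177, 133, 168 and 235 counts in the B6 libraries and 631, 513, 396 and 358 in the C3H libraries. This was 4.70, 3.26, 3.10 and 4.37 CPM against 12.4, 9.85, 10.1 and 9.62 CPM, with the strains well apart. Its log2 fold change of 1.45 (standard error 0.15, adjusted p = 5.41e-05) was the largest of the 10 genes, with 1.58 (adjusted p = 0.00148) in the 4 libraries with least pancreatic RNA. Ly6c1 rose too, but less, from 6.44 ± 0.879 to 9.52 ± 1.15 CPM (log2 fold change 0.56, standard error 0.13, adjusted p = 0.00909). Ly6c2 took 30.1% to 41.9% of the counts of the pair in B6 and 49.5% to 53.8% in C3H. The pair summed was at 8.45 to 11.2 CPM in B6 and 17.9 to 23.2 CPM in C3H. It rose 1.94-fold (log2 fold change 0.96, standard error 0.11, edgeR adjusted p = 0.000126). Of the 50-base words of Ly6c1, 32.8% occurred in another gene and 21.5% in Ly6c2. Reads could thus also pass to or from genes outside the pair, or go uncounted, which was not tested. The sum was chosen after seeing the data.

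**Figure D2:**
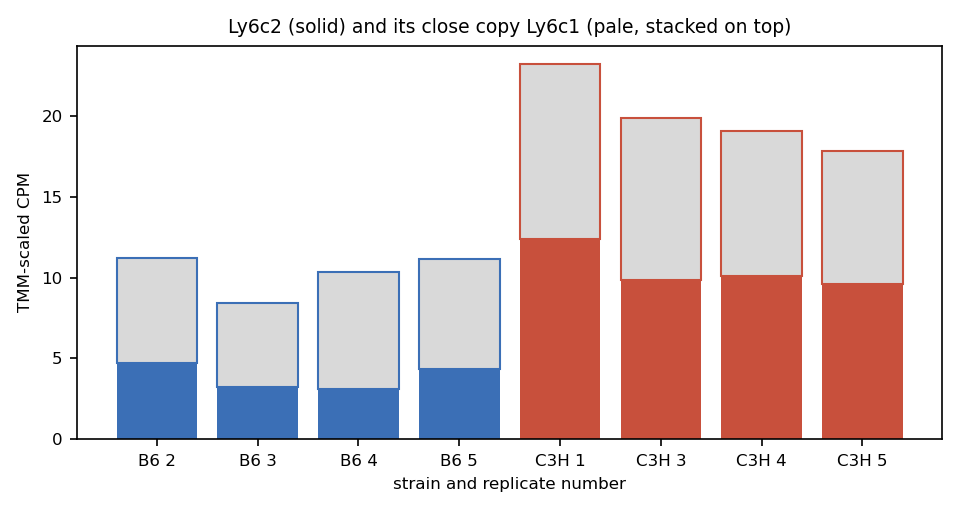
TMM-scaled CPM of Ly6c2 (solid) and Ly6c1 (pale, stacked on it) in each library, B6 in blue and C3H in red, with the strain and replicate number below each bar. The C3H bars end at 17.9 to 23.2 CPM and the B6 bars at 8.45 to 11.2 CPM, and the solid part is a larger share in C3H than in B6.

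The rise was not shared by all genes of the cluster on chromosome 15. Ly6a, also called Sca-1, was at 19.9 ± 1.63 and 22.1 ± 1.48 CPM (adjusted p = 0.242), while Ly6e, an interferon-responsive member, fell 2.22-fold from 144 ± 27.3 to 64.7 ± 7.58 CPM (adjusted p = 0.000146). Ly6i and the neutrophil gene Ly6g were not tested, with 12 and 0 counts over the B6 and 9 and 7 over the C3H libraries. The cells with Ly6c2 could include T cells and endothelium. Of 11 tested T cell and killer lymphocyte markers 10 fell and 1, Cd4, rose (100% called, against 21.4% of all genes). Their summed level was 387 to 409 CPM in B6 and 154 to 244 CPM in C3H, with Gzma alone at 209 ± 5.09 and 83.8 ± 24.7 CPM. Of 7 blood endothelium markers, Ly6c1 among them, 3 rose (Kdr, Ly6c1 and Tie1) and 1 fell (Vwf), or 57.1% called. These summed to 122 to 136 CPM in B6 and 124 to 166 CPM in C3H. The part of T cells and of endothelium in the Ly6c2 values was not tested.

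The chemokine receptors of the lineage differed little. Ccr2 (ENSMUSG00000049103, chromosome 9), which brings monocytes out of the marrow and into tissue, was at 3.08, 2.52, 1.81 and 2.10 CPM in B6 and at 2.77, 2.27, 1.99 and 1.61 CPM in C3H. The strains overlapped (log2 fold change -0.12, standard error 0.21, adjusted p = 0.732), so Ly6c2 and Ccr2, both high in inflammatory monocytes, had different values for the strain difference here. Cx3cr1 (ENSMUSG00000052336, chromosome 9), the receptor of mature gut macrophages, was at 9.40, 10.4, 9.30 and 10.5 CPM in B6 and at 10.9, 10.6, 13.7 and 10.9 CPM in C3H. No values overlapped, but the gap was small, and the log2 fold change of 0.22 (standard error 0.11) did not pass (adjusted p = 0.177). C3H 4 stood apart from the other 3 C3H libraries.

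Ligands of these receptors were lower or did not pass. Cx3cl1 (fractalkine, the Cx3cr1 ligand, made by epithelium and endothelium) fell 1.58-fold, from 140.2, 161, 134 and 158 CPM in B6 to 78.1, 90.3, 99.95 and 107 CPM in C3H (log2 fold change -0.66, standard error 0.11, adjusted p = 0.00126). Ccl2, the main Ccr2 ligand, was at 0.335 ± 0.0838 and 0.298 ± 0.0289 CPM (log2 fold change -0.14, adjusted p = 0.8), and the further ligands Ccl7 and Ccl12 had too few counts to be tested. Ccl3 and Ccl4, which attract monocytes and are also made by killer lymphocytes, fell by 1.65 and 2.46 on the log2 scale (adjusted p = 0.000447 and 0.000105). In the list of monocyte recruitment genes 3 of 6 tested fell and 0 rose in edgeR, with a median of -0.53; at an unadjusted p under 0.05 0 were higher and 4 lower. Over all tested genes 10.1% were called lower.

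**Figure D3:**
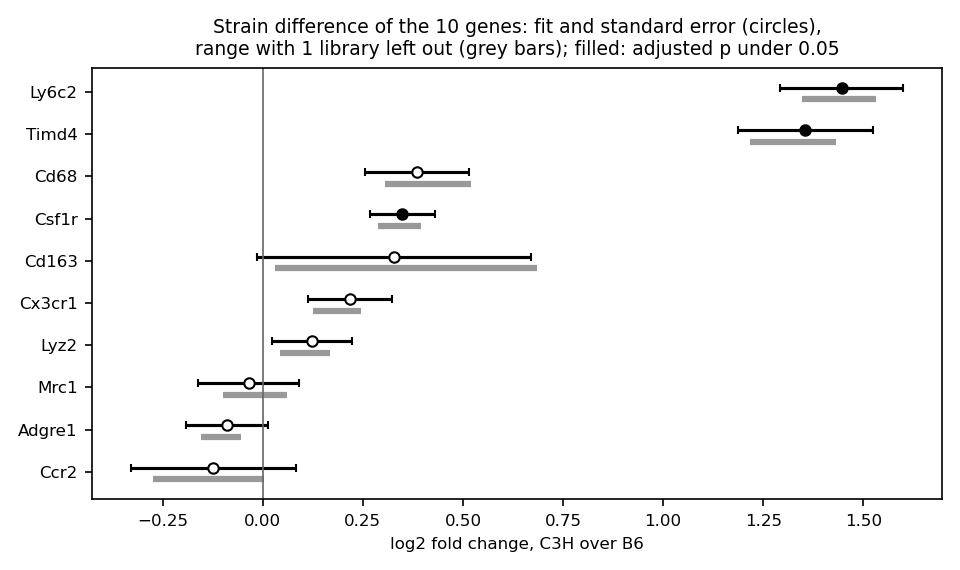
Log2 fold change (C3H over B6) of each of the 10 genes with its standard error (circles, filled where the adjusted p is under 0.05) and the range of the value when each library was left out in turn (grey bars). Ly6c2 and Timd4 sit at 1.45 and 1.36 with narrow bars, while the bar of Cd163 runs from 0.03 to 0.68.

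Levels between genes were compared as CPM per kilobase of merged exons. In B6 the order was Lyz2 (85.3 ± 6.42), Csf1r (10.7 ± 0.816), Cd68 (6.45 ± 1.23), Adgre1 (3.41 ± 0.329), Cx3cr1 (2.20 ± 0.142), Mrc1 (1.52 ± 0.242), Ly6c2 (1.41 ± 0.290), Timd4 (0.960 ± 0.200), Ccr2 (0.352 ± 0.0817) and Cd163 (0.306 ± 0.149 CPM per kilobase, SD, n = 4). Neighbours were apart in all B6 libraries except Mrc1 and Ly6c2, and Ccr2 and Cd163, which overlapped. In C3H the order began in the same way, but Ly6c2 stood in place 4 (3.83 ± 0.466) above Adgre1 (3.20 ± 0.271), and Timd4 in place 7 (2.47 ± 0.330) above Mrc1 (1.48 ± 0.148 CPM per kilobase). Adgre1 and Cx3cr1, Cx3cr1 and Timd4, and Cd163 and Ccr2 overlapped as neighbours in C3H. Timd4 thus moved from below Mrc1 in B6 to above it in C3H, with all C3H values apart (2.17 to 2.94 against 1.27 to 1.59 CPM per kilobase).

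Read against Csf1r within each library, the log2 ratio of Ly6c2 was -4.29 to -3.59 in B6 and -3.04 to -2.65 in C3H, and that of Timd4 was -5.42 to -4.66 and -4.01 to -3.63. Neither ratio overlapped between the strains. The ratio of Adgre1 ran the other way, from -2.70 to -2.23 in B6 to -3.05 to -2.79 in C3H, again without overlap. Csf1r itself was higher in C3H (log2 fold change 0.35) and Adgre1 was not called (-0.09). The lower ratio therefore does not show a lower Adgre1 level. Ratios of Cx3cr1, Cd163, Mrc1, Ccr2, Lyz2 and Cd68 to Csf1r overlapped between the strains. These ratios are descriptions and were not tested.

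After the strain means were removed, the genes did not vary as one block across the 8 libraries. Of their 45 pairs 24 had a positive Pearson r of log2 CPM, with a median of 0.06 and a range from -0.72 (Csf1r with Cd163) to 0.76 (Csf1r with Cd68). Among 10435 genes with a mean of at least 5 CPM, those closest to Csf1r were Wdr45, Tifab and Pld4 (r = 0.99, 0.98 and 0.98 over 8 libraries). Closest to Lyz2 were Casp8, Traf3ip1 and Rce1 (0.99, 0.97 and 0.97), and closest to Adgre1 were C3ar1, Anxa1 and Mlph (0.95, 0.92 and 0.91). The libraries share depth, scaling and tissue makeup and these genes are the highest of many correlations, so the values are a description only.

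Other genes of macrophages were not all called in the direction of Csf1r: Maf, Tfec and Gpnmb fell, as described further on. In a list of core macrophage genes 7 of 19 tested rose and 0 fell in edgeR, while 12 were not called (36.8% called, against 21.4% of all genes), with a median log2 fold change of 0.22; at an unadjusted p under 0.05 9 were higher and 0 lower. Cd14, a co-receptor for lipopolysaccharide, was at 3.64 to 4.84 CPM in B6 and 14.5 to 23.6 CPM in C3H (a rise of 2.17 on the log2 scale, standard error 0.16), and Siglec1, the sialic acid receptor CD169, at 2.30 to 3.83 CPM and 5.44 to 8.43 CPM (1.19, standard error 0.19). Sirpa, the receptor for the signal CD47 that restrains phagocytosis, rose 1.49-fold and the integrin gene Itgam (CD11b) 1.51-fold. Cd14 and Siglec1 were the 2 core genes still called in the 4 libraries with least pancreatic RNA. Beyond the genes picked by rule, C1qa, Mpeg1 and Tmem119 were named after their values were seen: they rose 1.39-fold, 1.27-fold and 1.46-fold. Their calls were lost without single libraries (C1qa without B6 2 or without C3H 4, adjusted p at most 0.0545; Mpeg1 without any but B6 4, C3H 1 and C3H 3, up to 0.109; Tmem119 without any but B6 5 and C3H 5, up to 0.098). Itgam was lost without C3H 3 (adjusted p = 0.0531).

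The genes for the chains of complement C1q, which are expressed together by macrophages and lie side by side on chromosome 4, gave unequal values. C1qa rose from 48.9 ± 8.75 to 68.1 ± 5.73 CPM (adjusted p = 0.0185), C1qc was at 40.9 ± 3.59 and 48.4 ± 3.39 CPM (adjusted p = 0.0751) and C1qb at 42.2 ± 5.90 and 40.4 ± 3.24 CPM (adjusted p = 0.727). The difference between chains was not tested. Fcgr1, the CD64 gene used to sort gut macrophages, was at 2.78 ± 0.592 and 2.90 ± 0.510 CPM. Mertk, a receptor for the uptake of dying cells, was at 252 ± 61.4 and 208 ± 49.2 CPM. Neither passed. Per kilobase Mertk was at 58.1 CPM in B6 and 48.0 CPM in C3H, against 10.7 and 13.6 CPM for Csf1r. Which cells the Mertk counts came from was not tested. Vsig4, Trem2 and Il10 were not tested, with at most 25 counts in a strain. Calls in this list were sensitive to single libraries: 4 core genes were called without B6 2 or without C3H 4.

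Genes of long-lived and perivascular macrophages, the cells that Timd4 marks in part, were called at a share near that of all genes (20% against 21.4%). Of 10 tested 2 rose and 0 fell in edgeR, with a median of 0.13, and at an unadjusted p under 0.05 4 were higher and 1 lower. Both called genes had few counts. Folr2, a folate receptor, had 28 counts over the B6 and 111 over the C3H libraries (log2 fold change 1.98, standard error 0.48, adjusted p = 0.0124). C3H 3 held more than the other C3H libraries (1.21 against 0.334 to 0.457 CPM), and without it the value was 1.31 (adjusted p = 0.0179). The same library had the most fat RNA (Adipoq 31.5 CPM against 0 to 5.89 CPM in the other 7), whose part was not tested. Cd209d, a C-type lectin, had 24 and 83 counts (1.81, standard error 0.35, adjusted p = 0.00329). Close copies of Cd209d may share reads. In the list 4 genes were called without C3H 1, and 0 in the 4 libraries with least pancreatic RNA.

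**Figure D4:**
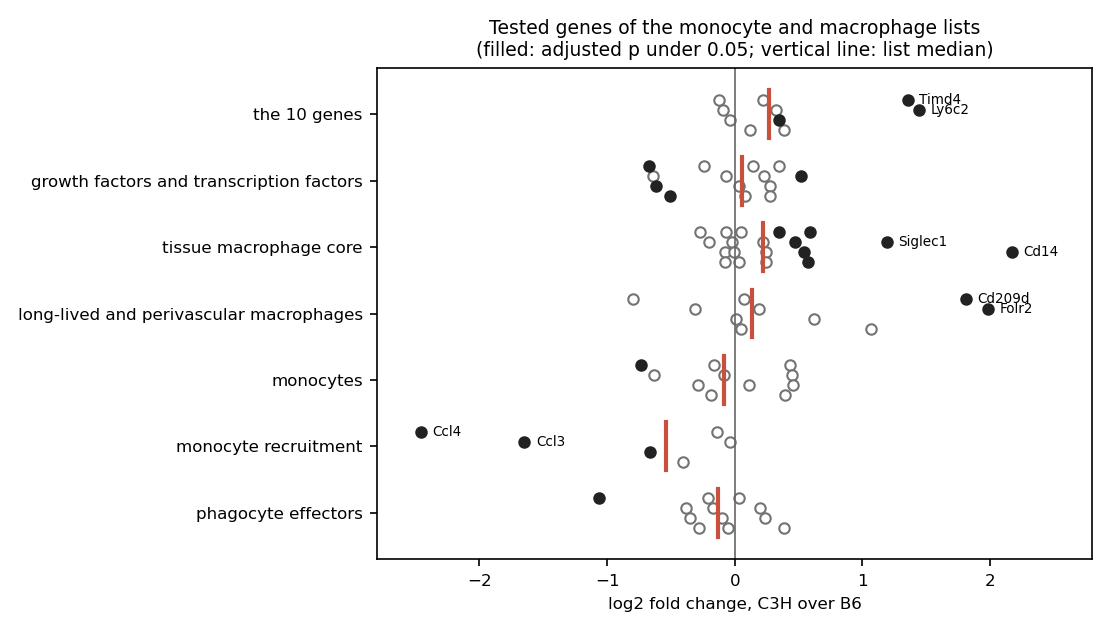
Log2 fold change (C3H over B6) of each tested gene in the 10 genes and in 6 lists of monocyte and macrophage genes, filled where the adjusted p is under 0.05, with the list median as a vertical line. Called genes of the core list lie to the right and those of the recruitment list to the left, with medians of 0.22 and -0.53.

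Genes of monocytes, other than Ly6c2 and Ccr2, gave 1 call in 11 tested (9.09% called, against 21.4% of all genes). Spn, the sialophorin of non-classical monocytes and T cells, fell 1.67-fold (9.25 ± 0.657 to 5.55 ± 0.590 CPM, adjusted p = 0.000556), and the list median was -0.08. Chil3, Clec4e and S100a4, typical of monocytes, were too low for a test, at 14, 2 and 8 summed B6 counts against 0, 4 and 5 summed C3H counts. The count of calls was 2 without B6 2, B6 4 or B6 5 and 3 without B6 3. Phagocyte effectors gave 1 call in 12 (8.33% called, against 21.4% of all genes). This was Gpnmb, a lysosomal glycoprotein of lipid-laden macrophages, which fell 2.09-fold (edgeR adjusted p = 0.0233). The call needed each of B6 3, B6 5, C3H 1 and C3H 3 (without 1 of them adjusted p was up to 0.0663); the list held 0 calls without B6 3, C3H 1 or C3H 3, 2 without B6 4 and 3 without B6 2. The list median was -0.13.

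Growth factors and transcription factors of the lineage moved both ways, with 1 of 14 higher (Csf1) and 3 lower (28.6% called, against 21.4% of all genes). Maf, which holds macrophages in their mature state and is also made by T cells, fell 1.54-fold from 267 ± 27.1 to 174 ± 11.3 CPM (edgeR adjusted p = 0.000719). Per kilobase Maf was at 32.4 CPM in B6 and 21.1 CPM in C3H, against 10.7 and 13.6 CPM for Csf1r. Which cells the Maf counts came from was not tested. Irf8, the factor of monocyte and dendritic cell fate, which B cells also make, fell 1.42-fold from 105 ± 12.3 to 74.3 ± 6.87 CPM (adjusted p = 0.00461). Tfec, a factor of the MiT family, fell 1.59-fold on 125 and 75 counts (edgeR adjusted p = 0.0378). This call was lost without any 1 library except C3H 5 (edgeR adjusted p up to 0.0968). The PU.1 gene Spi1, at 8.00 and 10.2 CPM, did not pass. No gene of the list was called in the 4 libraries with least pancreatic RNA.

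Among structural relatives of the 10 genes, 5 of 11 tested rose and 1, Ly6e, fell (54.5% called, against 21.4% of all genes). Besides Ly6c1 and Havcr2 these were Mrc2, the collagen receptor of fibroblasts related to Mrc1 (1.51-fold, adjusted p = 0.0177), Adgre5 (CD97, 1.23-fold, adjusted p = 0.0172) and Kit, the kinase related to Csf1r (1.45-fold). Mrc2 was lost without B6 3, B6 5 or C3H 3 (adjusted p up to 0.0637) and Adgre5 without B6 2, C3H 1 or C3H 3 (up to 0.104). The dendritic cell receptor Flt3, also of the Csf1r family, was at 3.32 ± 0.403 and 2.78 ± 0.282 CPM (adjusted p = 0.2), and the F4/80 relative Adgre4 at 3.07 ± 0.594 and 3.62 ± 0.168 CPM (adjusted p = 0.291).

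Leukocyte markers as a whole went the other way from Csf1r. Ptprc (CD45), Cd53, Coro1a and Cd52 fell and Laptm5 did not pass, and their summed level was 193 to 234 CPM in B6 and 146 to 162 CPM in C3H. Of 5 tested eosinophil markers 1 rose (Ccr3) and 2 fell (Siglecf and Prg2), with sums of 10.5 to 13 CPM and 7.16 to 9.41 CPM; Epx, Ear1 and Ear6 had 0 counts in B6 and Ear6 also in C3H. Of 8 dendritic cell markers 2 rose (Xcr1 and Clec9a) and 2 fell (Itgae and Cd209a), with sums of 52.2 to 60.0 CPM and 41.1 to 55.6 CPM. Itgae alone made up most of these sums, at 41.4 ± 1.58 CPM in B6 and 30.0 ± 5.80 CPM in C3H. Of 3 tested neutrophil markers 2 rose (Cxcr2 and Retnlg), at sums of at most 5.61 CPM, while S100a8, S100a9, Mmp8 and Ly6g were too low to be tested. Lymphatic endothelium gave 0 calls in 7 in edgeR (2 at an unadjusted p under 0.05, 1 in DESeq2 and 0 in limma-voom), with sums of 36.3 to 50.6 CPM and 43.7 to 61.2 CPM, and smooth muscle 0 in 6 in edgeR (0 at an unadjusted p under 0.05, 0 in DESeq2 and 0 in limma-voom). B and plasma cells gave 1 lower call in 7 and Paneth cells 1 lower in 6. For comparison, 11.3% of all tested genes were called higher and 10.1% lower. The part of these cells in the values of the 10 genes was not tested.

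The 8 libraries held 37205896 to 58251332 counts, so 1 count was worth 0.0185 to 0.0269 CPM. Epithelial markers of the labelled tissue summed to 8286 to 11933 CPM. Pancreatic markers, which the jejunum should lack, summed to 8.11 to 227 CPM in B6 and 8.71 to 2842 CPM in C3H, highest in B6 2, B6 3, C3H 3 and C3H 5. With those 4 libraries left out, an alternative added after seeing the data, 2 of the 10 genes were called, Ly6c2 and Timd4, each higher.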

How the data were processed

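RNA from the jejunum of 4 B6 and 4 C3H libraries was sequenced from stranded mRNA libraries, per the labels' protocols. The deposited values are raw read counts per Ensembl gene made by the authors; STAR 2.7.9a, HTSeq 2.0.2 and GRCm39 are named in the submitters' processing notes. For annotation release and strand setting: not given in the sources used here. Symbols came from GENCODE M21 (GRCm38), which matched 52000 of 56941 identifiers and all 195 listed symbols. Merged exon lengths, transcript sequences and chromosomes also came from it, and no coordinates, because the builds differ.

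Genes were kept by edgeR's filterByExpr (minimum count 10), scaled by TMM and tested C3H against B6 with edgeR 4.0.16 (quasi-likelihood F test, Benjamini-Hochberg adjustment over 18025 genes, threshold 0.05, R 4.3.3). Standard errors are the absolute log2 fold change divided by the square root of F. Alternatives included DESeq2 1.42.0, limma-voom 3.58.1, other scalings and filters, and each library left out. Scripts were tested on simulated data. The 10 genes and all lists were chosen with earlier results of these data known. From each list up to 4 called genes with the smallest adjusted p were named, and all tested relatives. C1qa, C1qb, C1qc, Mpeg1, Tmem119, Fcgr1, Mertk, Il34, Ccl2, Spi1, untested genes and single marker genes were named after their values were seen. Two-sided tests were used throughout. Some list members are counted with their lists but are not reported here by name.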

Additional observations from a re-analysis of the deposited data

Results flagged for a closer look

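In 90 groups of 4 libraries, 5 values lay further from the rest of their strain than Dixon's 95% critical value allows, a criterion that chance meets in about 1 in 20 groups. Among the 10 genes this was Cx3cr1 in C3H 4, at 13.7 CPM against 10.6 to 10.9 CPM in the other C3H libraries. Sirpa was low in C3H 5, at 22.6 CPM against 24.6 to 25.0 CPM. Folr2 was high in C3H 3, at 1.21 CPM against 0.334 to 0.457 CPM. Adgre4 was high in B6 4, at 3.96 CPM against 2.68 to 2.88 CPM. Fcgr1 was high in B6 5, at 3.66 CPM against 2.42 to 2.57 CPM.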

How the results depend on the processing

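Of the 10 genes 2 to 4 were called higher and 0 lower in every setting run. The count was 4 with DESeq2, with limma-voom and without B6 5. It was 2 with a replicate block, without the 4 pancreas-rich libraries and with scaling to the core list, the last 2 chosen after seeing the data. Mertk held 38.2% of the counts of that core list, so this scaling leans on 1 gene whose cells of origin were not tested. Ly6c2 and Timd4 were called in every setting, and Csf1r was not with those 3 (adjusted p = 0.0776, 0.295 and 0.18). Without the pancreas-rich libraries the lists gave 0 calls for growth and transcription factors, 2 for core genes and 0 for long-lived macrophages. At a threshold of 0.01 they gave 3 core, 1 long-lived and 0 phagocyte effector calls. Scaling to the core list gave 3 core calls. With a mean of at least 100 counts there were 0 long-lived and 1 recruitment call. Monocyte calls were 2 with DESeq2 size factors, library totals, no filter and the DESeq2 test. Effector calls were 2 with DESeq2 size factors and library totals and 4 with the DESeq2 test. With 1 library left out, calls ranged from 4 to 8 for core, 2 to 4 for long-lived, 1 to 3 for monocyte and 0 to 3 for effector genes.

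The replicate numbers 3, 4 and 5 occur in both strains, and deviations of same-numbered libraries correlated at 0.01, 0.18 and -0.05, so the numbers were not taken as pairs. In those 6 libraries the replicate block gave 2 of the 10 genes, 3 core and 2 effector calls, and 2919 calls over all genes. Without the block the same 6 gave 3 of the 10 genes, 3 core, 4 long-lived and 3 effector calls, and 3212 over all genes.

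Changes of sign occurred only in genes that were not called. Mrc1 was 0.0191 with library totals, 0.13 with the replicate block and in the 6 libraries, 0.0316 without the pancreas-rich libraries, and -0.10 to 0.0605 with 1 library left out. Without the pancreas-rich libraries Ccr2 was 0.28, Lyz1 0.00794, Ccl2 0.0542, Fcgr1 -0.0482 and Il34 -0.0845. With scaling to the core list Fcgr1 was -0.0510 and Il34 -0.0480. Il34 was -0.0514 with the replicate block and -0.0491 in the 6 libraries. With 1 library left out Ccr2 ranged from -0.27 to 0.00265, C1qb from -0.16 to 0.0176, Fcgr1 from -0.0449 to 0.21 and Il34 from -0.0290 to 0.0799. The cause was not tested for any of these changes. Over the log2 fold changes of all named genes, 764 alternative values kept their direction and side of the threshold, 100 lost the threshold, 4 passed it and 24 changed sign. Over all genes 3857 were called, against 2326 at a threshold of 0.01 and 1675 without the pancreas-rich libraries. The low counts of Timd4, Ccr2 and Cd163 limit the precision of their values.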
